A study of Homo sapiens with 12 samples.

Results

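The plasminogen activation system was described here through 8 genes in 12 RNA-seq samples of the human neuroblastoma (NB) cell lines KELLY and SK-N-AS. PLAU and PLAT encode urokinase and tissue-type plasminogen activator, PLAUR encodes the urokinase receptor, SERPINB2, SERPINE2 and SERPINI1 encode serpins that inhibit such activators, and ANXA2 and S100A10 encode the subunits of a cell-surface complex that binds plasminogen and tissue-type plasminogen activator. Each gene was found by its gene name as 1 row among the 58735 rows of the count tables. The 8 genes were chosen by function with earlier values of these samples known, among them the falls of SERPINB2 and PLAU in SK-N-AS after Erastin. Their values in that contrast are therefore a description, with no test. KELLY, an NB line with MYCN amplification, and SK-N-AS, an NB line without it, were given DMSO or Erastin, which blocks cystine uptake through system xc- and can induce ferroptosis, for 24 h, with 3 samples per group. The dose was 1 µM in KELLY and 2 µM in SK-N-AS, so the effects of line and dose cannot be told apart, and each line is a single established line. The labels call KELLY cells neuronal and SK-N-AS cells neuroblasts, and wells were seeded in triplicate. P-values measure the spread between these samples, which may be technical.

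Plasminogen is an inactive plasma protein that the activators cut into plasmin, a broad protease that dissolves fibrin and helps to degrade extracellular matrix. Urokinase acts mostly bound to its receptor at the cell surface, while tissue-type plasminogen activator acts on fibrin and in the nervous system. Serpins trap their protease in a complex that does not come apart, and annexin A2 holds the S100A10 protein, which is unstable without it, at the membrane. In neural crest cells and in tumors the system is known for its part in migration and invasion.

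Total counts lay between 24169796 and 29835670. MYCN had between 116651 and 159802 counts in the KELLY libraries and between 1 and 11 in those of SK-N-AS, as the MYCN status given for the lines requires. All 8 adrenergic (sympathetic neuroblast) markers were detected in both lines, with a summed level of 4196 to 7035 CPM (counts scaled to the library size) in KELLY with DMSO and 945 to 1039 CPM in SK-N-AS with DMSO. The 8 markers of the mesenchymal NB state summed to 192 to 201 CPM in KELLY and 2590 to 2858 CPM in SK-N-AS, and the 6 fibroblast markers to 75.2 to 121 CPM and 4550 to 5188 CPM. Among blood cell markers, PTPRC had 13241 to 16496 counts in SK-N-AS with DMSO and 0 in KELLY, while CD3E and ITGAM were at 0 in all DMSO libraries. HBB, a red blood cell marker, had 1 to 208 counts per library in KELLY with DMSO and 0 in SK-N-AS with DMSO. Endothelial markers summed to at most 11.3 CPM, epithelial markers to at most 3.78 CPM and Schwann cell markers to at most 1.67 CPM in the DMSO samples. The part of these marker levels in the results on the 8 genes was not tested. Libraries of 1 group also carried unlike GC trends: Spearman's correlation, across genes, of GC content with a gene's log2 level relative to its mean over the 6 libraries of the line ran from -0.84 to 0.88.

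On GRCh38 (GENCODE release 44) PLAU lies on chromosome 10 from 73909177 to 73917496 and PLAUR on chromosome 19 from 43646095 to 43670547. PLAT lies on chromosome 8 from 42174718 to 42207709, and SERPINE2 on chromosome 2 from 223975045 to 224039318. SERPINB2 lies on chromosome 18 from 63871692 to 63903888 and SERPINI1 on chromosome 3 from 167735243 to 167825569. ANXA2 lies on chromosome 15 from 60347134 to 60402883, and S100A10 on chromosome 1 from 151982915 to 151993859. All 8 are protein-coding genes. PLAU shares 915 exon bases with C10orf55, a lncRNA on the opposite strand that had at most 4 counts in any library. SERPINB2 shares 547 exon bases with a readthrough gene of the same strand, which was not analysed here. ANXA2 has a near-identical pseudogene, ANXA2P2, and reads could be split between them.

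The lines were first compared without Erastin, to see which parts of the system each line expressed. In DMSO samples SK-N-AS had much more PLAU, PLAUR, PLAT, SERPINB2, ANXA2 and S100A10 than KELLY, while SERPINE2 and SERPINI1 did not pass the test. In the quasi-likelihood test of edgeR (adjusted after Benjamini-Hochberg), 6 of the 8 genes were higher in SK-N-AS and 0 were higher in KELLY at an adjusted p under 0.05. Of all 17089 genes tested, 30.3% were higher in SK-N-AS and 30.9% in KELLY. The median log2 fold change of the 8 genes was 4.76, against -0.02 over all genes tested. PLAU, SERPINB2 and S100A10 passed the filter on low counts only through SK-N-AS, so the count of 6 is a description and no p is given for these 3. In bulk samples fewer cells that express a gene and less RNA per cell cannot be told apart.

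PLAU, the gene of the urokinase activator, had 617, 529 and 449 counts in the SK-N-AS samples with DMSO and 0, 1 and 1 counts in those of KELLY. KELLY thus held almost no PLAU transcript, and the groups were far apart. The ratio of the pooled counts, scaled by library size, was 797 (exact 95% interval 220.4 to 6590, for counting error alone). PLAUR, its receptor, had 1129, 1102 and 816 counts in SK-N-AS and 39, 63 and 40 in KELLY. The receptor was therefore low but present in KELLY, at 1.83 ± 0.639 CPM (SD, n = 3), where SK-N-AS had 38.7 ± 7.02 CPM (SD, n = 3). On the log2 scale SK-N-AS was higher by 4.39 ± 0.28 (SE), with an adjusted p of 2.21e-06 in edgeR.

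PLAT, the gene of the tissue-type activator, was the activator that KELLY did express. It had 122, 243 and 265 counts there and 1267, 1246 and 1106 in SK-N-AS. The lowest KELLY value was that of DMSO replicate 1, and the groups did not overlap. SK-N-AS was higher by 2.51 ± 0.27 (SE) on the log2 scale (edgeR, adjusted p = 5.32e-05), a smaller value than that of PLAUR or ANXA2.

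The serpins divided in 2 ways. SERPINB2, which encodes plasminogen activator inhibitor 2, had 286, 294 and 310 counts in SK-N-AS with DMSO and 0 counts in every KELLY library. That is at least 297-fold higher in SK-N-AS, against a limit of 3 counts over the KELLY group (0.038 CPM). SERPINE2, which encodes protease nexin-1, an inhibitor of thrombin, urokinase and tissue-type plasminogen activator, had 985, 620 and 789 counts in KELLY and 506, 579 and 670 in SK-N-AS. Its lowest CPM value in KELLY and its highest in SK-N-AS were both 25.2, and the log2 fold change of -0.46 (standard error 0.21, 95% interval -0.87 to -0.06) did not pass, with an adjusted p of 0.0808 from edgeR. With each library's GC trend removed SERPINE2 did pass, at an adjusted p of 0.0106 from edgeR (range over 16 alternatives 0.0106 to 0.262). So did 12686 of all 17089 genes tested in that setting. SERPINI1, which encodes neuroserpin, a neuronal inhibitor of tissue-type plasminogen activator, had 33, 51 and 43 counts in KELLY and 33, 24 and 29 in SK-N-AS. Both groups were low, and the log2 fold change of -0.59 (standard error 0.30, 95% interval -1.18 to 0.01) did not pass, with an adjusted p of 0.123 from edgeR.

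The partners of the surface complex differed from each other in KELLY. ANXA2 had 671, 760 and 838 counts there and 26264, 27391 and 26150 in SK-N-AS, a log2 difference of 5.12 ± 0.14 (SE) whose adjusted p in edgeR was 5.46e-08. S100A10 had 0, 0 and 1 counts in KELLY and 3557, 3500 and 3525 in SK-N-AS. KELLY thus carried ANXA2 transcript with almost no transcript of its S100A10 partner, and the ratio of the pooled S100A10 counts was 10580 (exact 95% interval 1899 to 417939, for counting error alone). The ANXA2P2 pseudogene had 6.60 to 7.17% of the ANXA2 counts in SK-N-AS with DMSO and 7.88 to 9.24% in KELLY with DMSO. With its counts added to ANXA2, the log2 fold change was 5.10 (standard error 0.14).

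**Figure D1:**
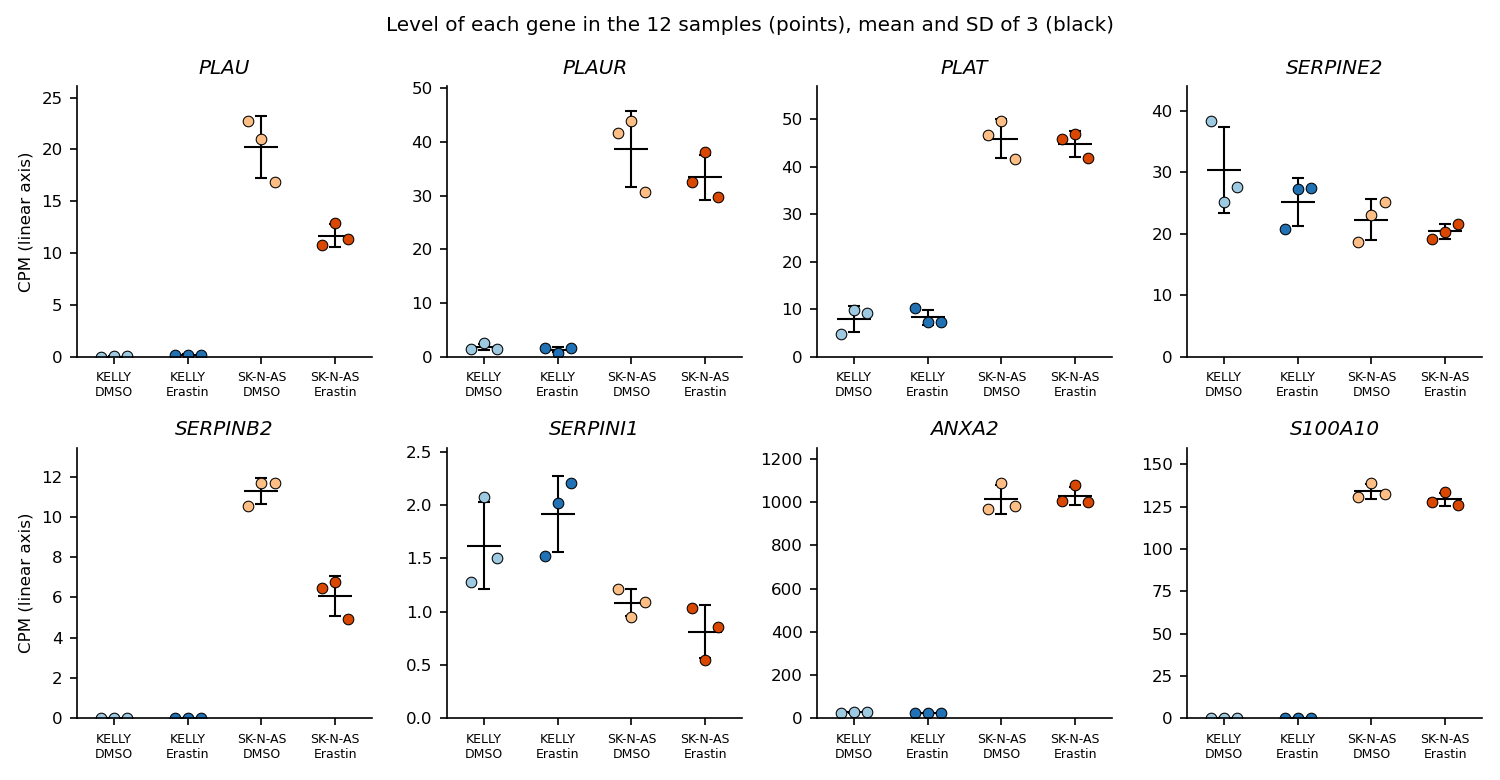
Level of each of the 8 genes in CPM (linear axes from 0, 1 panel per gene) in the 12 samples, by line and treatment. Points are samples, and black bars are the mean and SD of 3 samples. PLAU, SERPINB2 and S100A10 lie at or near 0 in all 6 KELLY samples, and in SK-N-AS the Erastin points of PLAU and SERPINB2 lie below all DMSO points.

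Levels of different genes were compared per kb of the canonical transcript. In SK-N-AS with DMSO the order was ANXA2 (652 ± 42.7 CPM per kb, SD, n = 3), S100A10 (200.02 ± 6.49), PLAUR (28.3 ± 5.13), PLAT (15.0 ± 1.31), SERPINE2 (10.0 ± 1.503), PLAU (8.63 ± 1.28), SERPINB2 (5.92 ± 0.347) and SERPINI1 (0.679 ± 0.0814). In that order SERPINE2 and PLAU were the only neighbors whose 3 samples overlapped. Among 15647 protein-coding genes detected in SK-N-AS with DMSO, ANXA2 ranked 61 and S100A10 ranked 235 from the top by CPM per kb. In KELLY with DMSO the order was ANXA2 (18.5 ± 1.57 CPM per kb, SD, n = 3), SERPINE2 (13.6 ± 3.13), PLAT (2.60 ± 0.916), PLAUR (1.33 ± 0.467) and SERPINI1 (1.01 ± 0.255), followed by the 3 genes at or near 0. Each of these 5 overlapped its next neighbor in the order except SERPINE2 and PLAT. SERPINE2 was thus the serpin with the highest level per kb of the 3 in both lines, and in KELLY it lay above every activator.

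**Figure D2:**
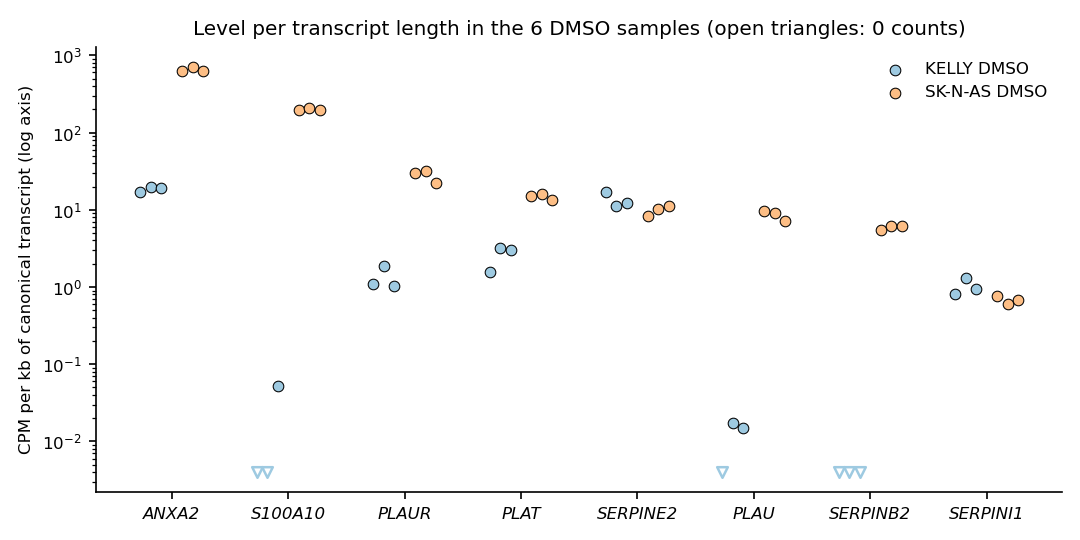
CPM per kb of canonical transcript (log axis) of the 8 genes in the 6 DMSO samples, ordered by their level in SK-N-AS. Points are samples and open triangles are samples with 0 counts; SERPINE2 and SERPINI1 differ least between the lines, and the other 6 genes lie higher in SK-N-AS.

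The sequences before the starts of the 3 genes at or near 0 in KELLY are shown because these genes separated the lines most, and because PLAU and SERPINB2 both fell in SK-N-AS after Erastin. They were copied from RefSeq (GRCh38.p14), 5′ to 3′ on the strand of the gene, and end at the base before the start. For PLAU, which has 2 windows, the window of the downstream start is given, without its last 28 bases, which an exon of PLAU covers. Capitals mark a match to the AP-1 motif TGANTCA, the TATA motif TATAAA or the GC box GGGCGG, searched on both strands. SERPINB2 is at chr18:63887455-63887704 (plus strand), PLAU at chr10:73910882-73911103 (plus strand) and S100A10 at chr1:151993860-151994109 (minus strand).
SERPINB2: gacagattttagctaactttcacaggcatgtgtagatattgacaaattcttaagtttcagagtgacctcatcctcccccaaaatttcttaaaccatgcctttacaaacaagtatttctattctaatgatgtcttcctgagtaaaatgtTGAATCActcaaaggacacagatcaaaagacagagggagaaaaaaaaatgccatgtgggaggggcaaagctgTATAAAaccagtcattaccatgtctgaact
PLAU: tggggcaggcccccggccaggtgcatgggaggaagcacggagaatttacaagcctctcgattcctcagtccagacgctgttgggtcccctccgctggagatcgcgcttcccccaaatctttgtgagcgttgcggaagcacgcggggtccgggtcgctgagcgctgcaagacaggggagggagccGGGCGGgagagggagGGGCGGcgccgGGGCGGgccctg
S100A10: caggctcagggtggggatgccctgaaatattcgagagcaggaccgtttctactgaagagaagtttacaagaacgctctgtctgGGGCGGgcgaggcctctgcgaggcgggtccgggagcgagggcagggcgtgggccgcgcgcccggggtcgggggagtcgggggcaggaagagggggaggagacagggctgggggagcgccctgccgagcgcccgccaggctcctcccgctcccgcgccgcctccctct

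The 3 windows differed in composition. The 250 bases of SERPINB2 had a GC content of 37.2% and 0 CpG dinucleotides, with an AP-1 motif that began 102 bases before the start and a TATA motif that began 30 bases before it. The PLAU window had a GC content of 68.8%, 24 CpG and 3 GC boxes, and that of S100A10 had 71.2%, 24 CpG and 1 GC box. The medians over 35116 windows of the same length were 58.0% and 11 CpG. The AP-1 motif was found in 6.57% of these windows, the TATA motif in 10.7% and the GC box in 42.6%. RefSeq windows of 7 of the 8 genes were searched, with 9 windows in all, and PLAT was left out of this search. Besides SERPINB2, 1 AP-1 motif was found in the windows of ANXA2 and PLAUR, and ANXA2 also had 1 TATA motif. A match is a description of letters and not a binding site.

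Erastin was then compared with DMSO in KELLY. None of the 5 genes that passed the filter on low counts (PLAUR, PLAT, SERPINE2, SERPINI1 and ANXA2) had an adjusted p under 0.05 in edgeR. The count was also 0 at an unadjusted p under 0.05 (2.64% of all genes tested), with DESeq2 (0.165%), and with the GC trend removed (0.191%). Of all 16258 genes tested in KELLY, 0.00615% passed the adjusted threshold and 2.03% the threshold of the study's methods, an unadjusted p of at most 0.05 with a fold change of at least 1.5, which 0 of the 5 passed. The median log2 fold change of the 5 genes was -0.24, against 0.01 over all genes tested.

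PLAUR had 40, 19 and 43 counts with Erastin in KELLY, a log2 fold change of -0.47 with a 95% interval of -1.26 to 0.32. PLAT had 248, 190 and 204 counts and a log2 fold change of 0.07 (95% interval -0.52 to 0.66). These intervals held changes of either sign, and both genes overlapped between the groups. SERPINE2 had 505, 705 and 759 counts with Erastin (log2 fold change -0.27, 95% interval -0.70 to 0.16). SERPINI1 had 37, 52 and 61 counts (log2 fold change 0.25, 95% interval -0.34 to 0.83). The serpins also overlapped between the groups. ANXA2 was the 1 gene of the 5 whose groups did not overlap, as 8.54% of all genes tested did, with 28.8 ± 2.44 CPM with DMSO and 24.3 ± 0.557 CPM with Erastin (SD, n = 3 each), a log2 difference of -0.24 ± 0.15 (SE), with an adjusted p of 0.770 in edgeR. The adjusted p of the 5 genes lay between 0.770 and 0.933 in edgeR.

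The other 3 genes stayed at or near 0 in KELLY with Erastin. SERPINB2 had 0 counts in all 3 libraries, which allows a level of up to 0.039 CPM over the group (3 counts), and S100A10 had 0, 1 and 0 counts. PLAU had 5, 4 and 6 counts with Erastin against 0, 1 and 1 with DMSO. The groups did not overlap, and the ratio of the pooled counts was 7.61 (exact 95% interval 1.77 to 68.6, for counting error alone). But the gene failed the filter and was not tested in edgeR. DESeq2, run without that filter, gave PLAU an unadjusted p of 0.0658 in KELLY and no adjusted p. Even with Erastin, PLAU in SK-N-AS was 60.8 times the KELLY level (exact 95% interval 36.7 to 109).

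In SK-N-AS the fall of SERPINB2 was set against the other genes. After Erastin SERPINB2 and PLAU fell, while the receptor, the tissue-type activator, the other serpins and both subunits of the surface complex did not pass the threshold. These 2 of 8 genes had an adjusted p under 0.05 in edgeR, as they did with DESeq2, with the GC trend removed and by the threshold of the methods. Of all 16095 genes tested, 0.659% passed the adjusted threshold in either direction, 0.199% with a lower level, and 2.67% passed the threshold of the methods. The shares were 1.21% with DESeq2 and 6.66% with the GC trend removed. These values chose the genes, so nothing is read from the counts. The median log2 fold change of the 8 genes was -0.16, against -0.01 over all genes tested.

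SERPINB2 counts were 286, 294 and 310 under DMSO against 176, 199 and 127 under Erastin, or 11.3 ± 0.662 and 6.07 ± 0.980 CPM (SD, n = 3 each). Every Erastin sample lay below every DMSO sample, with Erastin replicate 3 the lowest. The log2 fold change was -0.88 (standard error 0.14), or 0.543 times the DMSO level, which ranked 114 from the lowest of 16095 genes tested. PLAU counts were 617, 529 and 449 under DMSO against 292, 379 and 292 under Erastin, or 20.2 ± 3.00 and 11.7 ± 1.10 CPM (SD, n = 3 each). Its groups did not overlap either, and DMSO replicate 3 was the lowest of its group. The log2 fold change was -0.78 (standard error 0.13), or 0.583 times the DMSO level, rank 162 from the lowest. SERPINB2 and PLAU were the 2 of 8 genes without overlap, as were 14.8% of all genes tested. Their printed promoter windows had none of the 3 motifs in common.

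Single libraries decided these calls, though not the direction. Without DMSO replicate 2 and without Erastin replicate 3 of SK-N-AS the count of called genes was 0, and without Erastin replicate 1 it was 1, SERPINB2. Without DMSO replicate 3 it was 3, with PLAUR added. Calls over all genes moved too, with 53 of 16524 without DMSO replicate 2 and 70 of 16502 without Erastin replicate 3. They were 77 of 16450 without Erastin replicate 1 and 855 of 16433 without DMSO replicate 3, against 106 of 16095 in the main fit. The log2 fold changes stayed between -0.96 and -0.76 for SERPINB2 and between -0.89 and -0.69 for PLAU over all alternatives. With all 12 samples in 1 fit the count was 0, beside 46 of 18239 over all genes tested.

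Some marker levels moved with the treatment in the same libraries. The mesenchymal NB markers summed to 2590 to 2858 CPM with DMSO and 2510 to 2536 CPM with Erastin in SK-N-AS, the fibroblast markers to 4550 to 5188 CPM and 4317 to 4413 CPM, and the endothelial markers to 10.7 to 11.3 CPM and 5.89 to 7.78 CPM. These 3 sums did not overlap between the groups, although no single marker of any list passed the adjusted threshold in edgeR. The unadjusted p was under 0.05 for 2 of 8 adrenergic, 2 of 8 mesenchymal, 1 of 6 fibroblast and 1 endothelial marker. This held for 8.77% of all genes tested. With DESeq2 1 adrenergic, 1 fibroblast and 1 endothelial marker passed the adjusted threshold, beside 1.21% of all genes tested. With the GC trend removed, 4 of 8 mesenchymal, 4 of 6 fibroblast, 1 of 8 adrenergic, 1 endothelial and 1 blood cell marker passed it. The share of all genes tested was then 6.66%. No marker of the mesenchymal or fibroblast list was at 0 in every library of a group, while of the 5 endothelial markers 1 was with DMSO and 2 were with Erastin. Only 1 of these 5 had at least 10 counts in every library of either group. KDR was the 1 endothelial marker tested, with a log2 fold change of -0.64 (standard error 0.13). Blood cell markers, almost all of them PTPRC, summed to 488 to 621 CPM and 454 to 510 CPM, with an overlap. The sums of the adrenergic markers (945 to 1039 CPM with DMSO and 926 to 956 CPM with Erastin), the epithelial markers and the Schwann cell markers overlapped as well. The part of these shifts in the falls of SERPINB2 and PLAU was not tested.

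PLAUR had 882, 1117 and 763 counts with Erastin in SK-N-AS, which overlapped the DMSO samples (log2 fold change -0.20, standard error 0.14). PLAT had 1242, 1380 and 1070 counts (log2 fold change -0.02, standard error 0.10). The DMSO and Erastin samples of the receptor and of the tissue-type activator thus overlapped. SERPINE2 had 520, 598 and 555 counts (log2 fold change -0.12, standard error 0.12). SERPINI1, with 28, 16 and 22 counts, had a log2 fold change of -0.42 whose 95% interval, -1.04 to 0.21, also holds the value of SERPINB2. At this depth a change of SERPINI1 as large as that of SERPINB2 could not be told from none. ANXA2 had 27227, 31680 and 25689 counts (log2 fold change 0.03, 95% interval -0.12 to 0.18), and S100A10 had 3468, 3934 and 3238 counts (log2 fold change -0.04, 95% interval -0.20 to 0.11). For both subunits of the complex the interval left out changes of the size seen in SERPINB2 and PLAU.

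**Figure D3:**
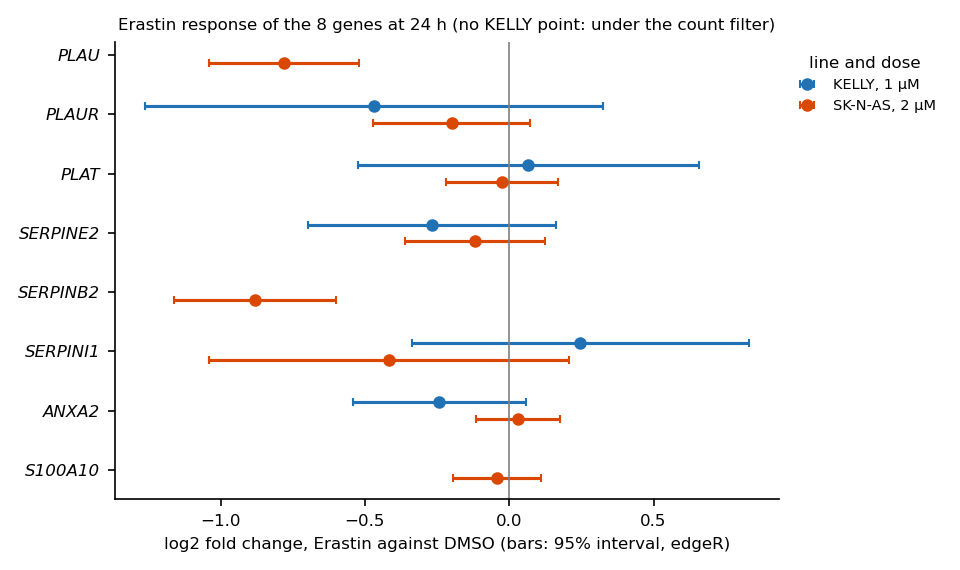
Log2 fold change of Erastin against DMSO at 24 h for the 8 genes in KELLY (1 µM) and SK-N-AS (2 µM), with 95% intervals from edgeR. PLAU, SERPINB2 and S100A10 have no KELLY value because the filter on low counts removed them. In SK-N-AS the points of PLAU and SERPINB2 lie lowest. Their falls had helped to choose these genes, so their intervals are a description with no test.

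Ratios within a library do not depend on the scaling between libraries, but they can carry its GC trend, which was not removed here. In SK-N-AS PLAU counts were 54.7, 48.0 and 55.02% of PLAUR counts with DMSO and 33.1, 33.9 and 38.3% with Erastin. SERPINB2 counts were 25.3, 26.7 and 38.0% of PLAUR counts with DMSO and 20.0, 17.8 and 16.6% with Erastin. Both ratios to the receptor were lower in every Erastin library than in every DMSO library. They hold the same counts whose falls helped to choose SERPINB2 and PLAU, so they are a description and no separate evidence. The ratio of SERPINB2 to PLAU, inhibitor to activator, was 46.4, 55.6 and 69.0% with DMSO and 60.3, 52.5 and 43.5% with Erastin, and these ranges overlapped. S100A10 counts were 13.5, 12.8 and 13.5% of ANXA2 counts with DMSO and 12.7, 12.4 and 12.6% with Erastin, and here too every Erastin library lay below every DMSO library, by a small margin.

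**Figure D4:**
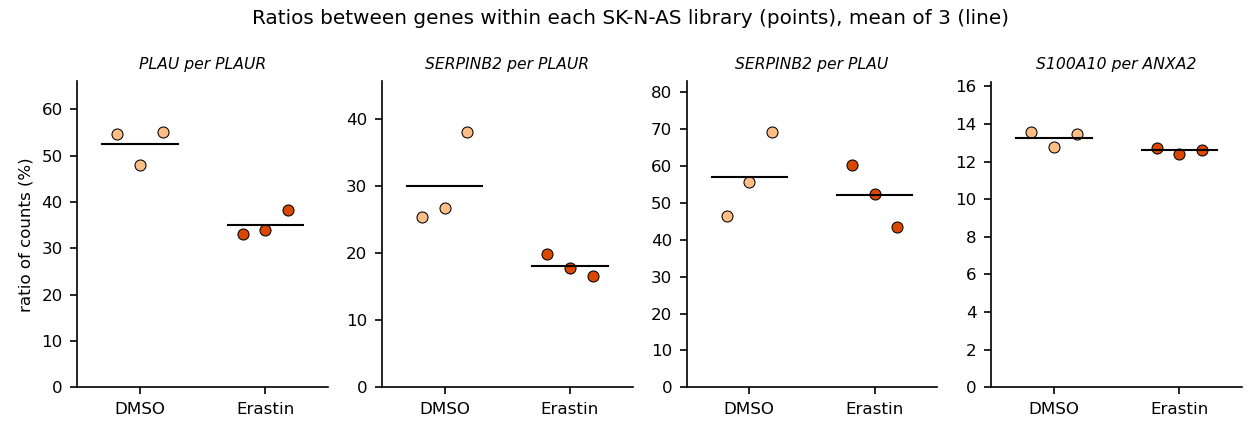
Ratio of the counts of pairs of genes within each SK-N-AS library, in percent (linear axes from 0), with DMSO and Erastin. Points are libraries and lines are the mean of 3. The ratios of PLAU and SERPINB2 to PLAUR do not overlap between the groups, while that of SERPINB2 to PLAU overlaps. The ratio of S100A10 to ANXA2 does not overlap either, by a small margin.

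Whether the response differed between the lines was fitted as the interaction of treatment and line over all 12 samples. Of the 5 genes that passed the filter in both lines, 0 had an adjusted p under 0.05 in edgeR and 0 an unadjusted one. The fit holds the contrast that chose the genes, so the differences are a description. Subtracting the KELLY response from that of SK-N-AS gave 0.26 for PLAUR (standard error 0.40), -0.09 for PLAT (0.32), 0.14 for SERPINE2 (0.26), -0.67 for SERPINI1 (0.42) and 0.27 for ANXA2 (0.13). For PLAU, whose KELLY libraries held at most 6 counts, the fitted difference is not a usable estimate of size, and its interval in KELLY alone is that of the ratio of pooled counts. With 0 or at most 1 count in every KELLY library, SERPINB2 and S100A10 gave no usable difference, so a fall of SERPINB2 in 1 line alone could not be examined. The 3 comparisons share the DMSO samples.

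Other genes of the system were taken from lists. Plasminogen itself (PLG) had 0 counts in all 12 libraries, so no transcript of the substrate was detected in either line. Of 24 genes for plasminogen, other inhibitors and receptors, 18 were tested between the DMSO samples, and 13 were higher in SK-N-AS and 3 in KELLY (median log2 fold change 1.34). The fibronectin receptor subunit ITGA5, the vitronectin receptor subunit ITGB3 and AHNAK, a binding partner of the annexin A2 complex, had log2 fold changes of 6.01, 5.26 and 4.35. SERPING1, the C1 inhibitor, was among the 3 higher in KELLY, at -3.44. Of 28 genes for plasmin-activated and matrix proteases with their inhibitors, 19 were tested, of which 14 were higher in SK-N-AS and 2 in KELLY (median 1.62, or 1.29 with genes near 0 counts at their lower bound). TFPI, an inhibitor of the tissue factor pathway, and MMP1, a collagenase, were at 0 in KELLY and at least 869-fold and 28.3-fold higher in SK-N-AS. MMP14, a membrane-bound matrix protease, had a log2 fold change of 8.93 and TFPI2, an inhibitor of plasmin, of 6.95.

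All 9 other serpins tested differed between the DMSO samples, with 7 higher in SK-N-AS and 2 in KELLY (median 2.41). SERPINB1 and SERPINB8, relatives of SERPINB2 from the same clade, had log2 fold changes of 6.53 and 5.91. SERPINB9, the inhibitor of granzyme B, went the other way, with 487 to 598 counts per library in KELLY and 1 to 4 in SK-N-AS (ratio of pooled counts 236, exact 95% interval 114 to 587). Among other annexins and S100 proteins, relatives of ANXA2 and S100A10, 11 of 14 tested were higher in SK-N-AS and 1 in KELLY (median 4.62, or 3.602 at the bounds). S100A6 and S100A3 were at 0 in KELLY, as S100A10 nearly was, and at least 4837-fold and 261-fold higher in SK-N-AS. S100A4 had a log2 fold change of 9.26, and the ratio of pooled ANXA1 counts was 3218 (exact 95% interval 1633 to 7454). Of 15 transcription factors known to act on the promoters of PLAU, PLAUR or SERPINB2, 10 were higher in SK-N-AS and 1 in KELLY (median 1.09). FOSL1, an AP-1 subunit, had 1 to 2 counts per library in KELLY and 2174 to 2895 in SK-N-AS, and EGR1, FOS and FOSL2 had log2 fold changes of 2.93, 1.91 and 1.70. ATF3 was the 1 factor higher in KELLY, at -1.504. The background for these counts was the 30.3% of all genes tested that were higher in SK-N-AS and the 30.9% higher in KELLY.

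After Erastin, few genes of these lists passed the adjusted threshold. In KELLY none of the 5 lists had a call in edgeR. At an unadjusted p under 0.05 the plasminogen and receptor list had 2 of 16 genes tested, the protease list 1 of 15, the other serpins 0 of 7, the annexins and S100 proteins 0 of 9 and the transcription factors 1 of 13, beside 2.64% of all genes tested. At an adjusted p under 0.05 the counts were 1, 0, 0, 0 and 1 with DESeq2 and also with the GC trend removed, the genes being VLDLR and ATF3 in both. The shares of all genes tested were 0.165% and 0.191%. The receptors VLDLR and LRP1, which take up complexes of activator and serpin, had log2 fold changes of 1.06 (standard error 0.21) and 0.72 (0.17) in KELLY. The list medians in KELLY were 0.09, -0.06, 0.27, 0.10 and 0.24. HGF, a growth factor of the plasminogen family, and MMP15 had values of -0.54 (0.23) and 0.49 (0.28), SERPINB6 and SERPINF1 of 0.30 (0.15) and 0.47 (0.25), and ANXA11 and ANXA4 of 0.49 (0.30) and 0.27 (0.25). ATF3 had 1.02 (0.16) and FOSL2 0.38 (0.22). With the GC trend removed HGF had -0.19, MMP15 0.10, LRP1 0.48, SERPINF1 0.31 and ANXA4 0.50.

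In SK-N-AS 1 gene of the 5 lists passed the adjusted threshold in edgeR without a GC correction. ATF3, a stress-induced factor of the AP-1 and ATF family, rose by 1.07 on the log2 scale (standard error 0.17, adjusted p = 0.00851 from edgeR). At an unadjusted p under 0.05 the plasminogen and receptor list had 3 of 18 genes tested, the protease list 4 of 19, the other serpins 3 of 8, the annexins and S100 proteins 2 of 14 and the transcription factors 3 of 15, beside 8.77% of all genes tested. At an adjusted p under 0.05 the counts were 2, 1, 0, 0 and 1 with DESeq2 and 5, 2, 2, 4 and 5 with the GC trend removed. The shares of all genes tested were 1.21% and 6.66%. The list medians were -0.01, -0.04, -0.13, -0.09 and 0.03. VLDLR had a log2 fold change of 0.92 (standard error 0.19) and AHNAK of 0.36 (0.10), and TFPI2 and LTBP1 had values of -0.36 (0.09) and -0.27 (0.09). All 8 other serpins tested had negative values, from -1.01 to -0.03, as did 52.4% of all genes tested. None was called, but with the GC trend removed SERPINB1 and SERPINB7 were (adjusted p = 0.00602 and 0.0292 from edgeR). SERPINB7, a neighbor of SERPINB2 by family, had -1.01 (standard error 0.28, adjusted p = 0.206 from edgeR) on 39 to 75 counts per library with DMSO and 28 to 37 with Erastin, and SERPINB1 had -0.27 (0.09). S100A4 and S100A16 had -0.29 (0.08) and -0.23 (0.09). FOSL1 had -0.20 (standard error 0.11).

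**Figure D5:**
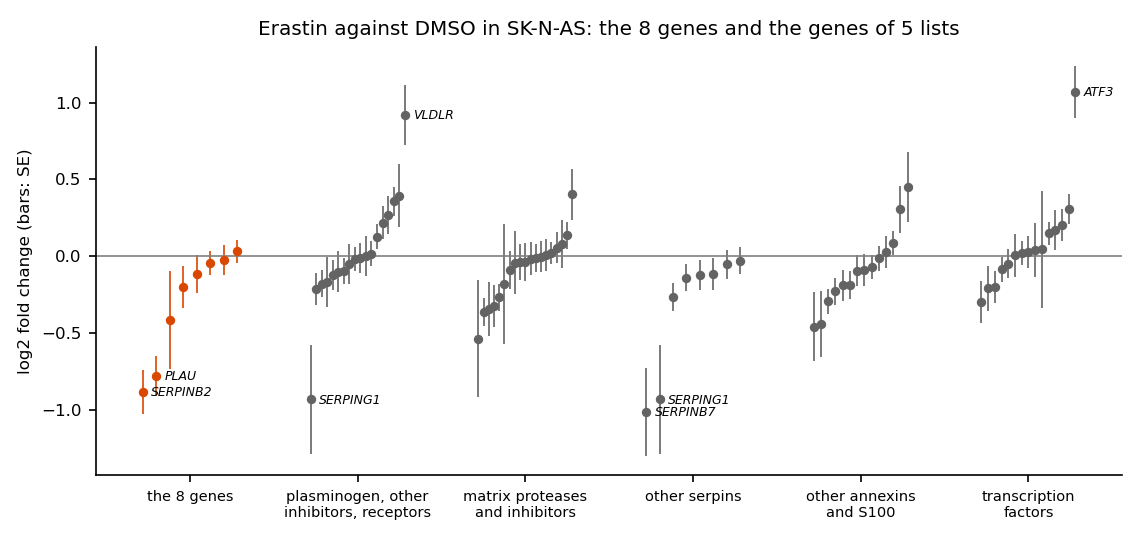
Log2 fold change of Erastin against DMSO in SK-N-AS for the 8 genes (orange) and the genes of the 5 lists (gray), with standard errors from edgeR, and with names for genes beyond 0.7 in size. All other serpins lie below 0, with SERPINB7 at -1.01, and ATF3 at 1.07 is the 1 list gene past the adjusted threshold without a GC correction.

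The genes whose levels followed SERPINB2 and PLAU most closely were ranked by Pearson's correlation of log2 CPM over the 6 SK-N-AS libraries, among 12449 genes. These correlations describe 6 points that share the treatment groups and the depth of the libraries. For SERPINB2 they were PPIF (0.995), SLC35F3 (0.991), PAQR5 (0.991), RGL1 (0.991) and ANXA10 (0.990). Their log2 fold changes after Erastin ranged from -0.82 for ANXA10 to -0.08 for RGL1, so that a close correlation went with very different sizes. For PLAU they were MARCHF11 (0.997), PHLDA2 (0.993), PRAME (0.990), CA12 (0.990) and TMEM158 (0.990), with log2 fold changes between -0.68 and -0.15. SERPINB2 and PLAU had a correlation of 0.88 with each other. Their falls across these libraries had helped to choose them, so nothing is read from this value. The correlation of SERPINB2 was 0.69 with S100A10, 0.52 with PLAUR, 0.35 with SERPINE2, 0.27 with PLAT and -0.11 with ANXA2.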

How the data were processed

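RNA-seq was done on 12 samples, 3 in each of 4 groups. Per the methods, the authors trimmed 150-bp paired reads with Trimmomatic, aligned them to GRCh38, counted them with HTSeq on GENCODE 29 and compared groups with DESeq2. They deposited raw counts per gene, which are the only unit used. Library totals were 24169796 to 29835670, and no 2 samples were identical.

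Groups came from the sample labels. The members and the 5 gene lists were chosen with earlier results of these data known. Counts were filtered with filterByExpr (minimum count 10), scaled by TMM and tested with edgeR 4.0.16 (quasi-likelihood test, Benjamini-Hochberg adjustment over all genes tested, threshold 0.05) in R 4.3.3. Printed CPM values were TMM-scaled over all 12 libraries. The model was tested on simulated data. Genes with few counts in a group were compared by pooled counts, with exact 95% intervals, or against 3 counts over the group, and these limits cover counting error only. The GC alternative took a loess trend (span 0.5) from each library; GC was known for 87.5 to 88.3% of the genes tested.

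Named genes were the 8 members, MYCN, at most 4 called genes per list and comparison with the largest change (with none called, up to 2 with the smallest p), and the 5 genes most like SERPINB2 and PLAU. SERPINB1, S100A16, FOSL1, C10orf55, ANXA2P2 and the blood markers were named in addition, after their values were seen. The alternatives were DESeq2 1.42.0, other scalings and filters, protein-coding genes alone, GC offset, replicate block, all samples in 1 fit, each replicate left out and, added after seeing the data, ANXA2P2 counts joined to ANXA2. Samples were not paired by replicate number in the main fits. PLAT has no sequence shown, and some genes that the rule would name are not reported here.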

Additional observations from a re-analysis of the deposited data

Results flagged for a closer look

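The counts of PLAU, the urokinase gene, moved in opposite directions with Erastin in the 2 lines, a difference that was not tested. All 3 KELLY samples with Erastin (5, 4 and 6 counts) lay above all 3 with DMSO (0, 1 and 1 counts), while all 3 SK-N-AS samples with Erastin (292, 379 and 292 counts) lay below all 3 with DMSO (617, 529 and 449 counts). Groups did not overlap in CPM for 8.54% of the genes tested in KELLY, where PLAU was not tested, and for 14.8% in SK-N-AS. The fitted difference, on the log2 scale and with KELLY taken from SK-N-AS, was -3.51 (edgeR over all 12 samples). This difference is not a usable estimate of size. It is given with no error and no test, because PLAU passed the filter on low counts only through SK-N-AS and the SK-N-AS contrast had helped to choose the gene. The KELLY side rests on 2 counts in all with DMSO, and the exact 95% interval of its ratio of pooled counts, 7.61, ran from 1.77 to 68.6.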

How the results depend on the processing

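The number of genes called between the DMSO samples was 3 of 5 tested with at least 10 counts in every sample, because PLAU, SERPINB2 and S100A10 were then not tested, and 6 to 7 when a replicate was left out. For Erastin in KELLY it stayed at 0 (0 to 0 without single replicates), as it did for the difference between lines (0 to 0). For Erastin in SK-N-AS it was 0 with all 12 samples in 1 fit, and 0 to 3 without single replicates, with 0 for DMSO replicate 2 and Erastin replicate 3, 1 for Erastin replicate 1 and 3 for DMSO replicate 3; the cause was not tested. SERPINE2 between the DMSO samples passed in 4 of 16 alternatives, with log2 fold changes of -0.58 to -0.26. Signs turned in values near 0: PLAT in KELLY was -0.0134 with the GC offset and -0.20 to 0.24 without single replicates, PLAT in SK-N-AS -0.0901 to 0.04, ANXA2 in SK-N-AS -0.0022 to 0.0900, and the difference between lines -0.28 to 0.17 for PLAT, -0.0595 to 0.26 for SERPINE2 and -0.0601 to 0.44 for PLAUR. Over all genes, 1 gene was called in KELLY, against 25 with DESeq2, 31 with the GC offset, 19 with no filter, 17 with all 12 samples in 1 fit and 0 to 2 without single replicates. In SK-N-AS 106 were called, against 199 with DESeq2, 1072 with the GC offset, 265 with no filter, 46 with all 12 samples in 1 fit and 53 to 855 without single replicates (855 without DMSO replicate 3). Of these calls 69.8% were higher with Erastin, and 42.4% with the GC offset. Deviations of replicates with the same number had correlations of -0.83 to 0.42. The GC trends of the libraries enter these deviations, so whether the numbers pair samples could not be settled. The main fits did not pair them. With a replicate block 6, 0 and 2 of the 8 genes were called in the 3 comparisons and 0 for the difference between lines, while over all genes the block gave 308 calls in SK-N-AS and 0 in KELLY, or 1732 and 6 with the GC offset. Depth limited PLAU, SERPINB2 and S100A10 in KELLY, where 3 counts over a group stand for 0.038 to 0.039 CPM.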
